A study of Homo sapiens with 4 samples.

Results

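TGF-beta signals through a short chain of proteins. The ligand binds TGFBR2, a receptor kinase that then activates TGFBR1, the receptor kinase that phosphorylates SMAD2 and SMAD3, and these transcription factors enter the nucleus with SMAD4, their common partner. In the intestine the pathway restrains the growth of epithelial cells, and it is often lost in colon cancer. HCT116, a human colon cancer cell line that lacks DNA mismatch repair, is known for a frameshift in the coding sequence of TGFBR2. Counts of transcript ends do not read that change.

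Transcript ends of these 5 genes were examined in 4 libraries of DICER(ex5) cells, a line derived from HCT116 whose labels call it a DICER hypomorph. Dicer cuts microRNA precursors, and every library carries this defect. All 4 libraries form 1 group, and neither parental HCT116 cells nor any treatment is among the samples. The labels do not say whether the line is a single clone. The cells were grown in serum, and poly(A) site sequencing was used, a method in which each read starts from the poly(A) tail and marks where a transcript ended.

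The members are the poly(A) regions (stretches of the genome in which such reads were joined) that lie inside a window given for each gene, on the gene's strand. On hg19 the windows ran from 101866000 to 101918000 on chromosome 9 for TGFBR1 (plus strand) and from 30647000 to 30737000 on chromosome 3 for TGFBR2 (plus strand). They ran from 45334000 to 45458000 on chromosome 18 for SMAD2 (minus strand), from 67357000 to 67489000 on chromosome 15 for SMAD3 (plus strand) and from 48555000 to 48613000 on chromosome 18 for SMAD4 (plus strand). The windows held 19 of the 31081 regions in the table, with 4795 of 17073064 reads (0.0281%). SMAD2 had 9 regions, SMAD4 had 4, SMAD3 had 3, TGFBR1 had 2 and TGFBR2 had 1. A region is said to pass when its sum over libraries reached 10 reads and 5% of its gene's reads. This was so for 13 of the 19 regions, and the other 6 are described as well. No annotation of hg19 was used here, so exons, introns and UTRs are not assigned, and the gene of a region is that of its window.

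Library totals ran from 2163977 to 5713530 reads, and the 5 genes had 83 to 475 reads each per library. Every one of the 19 regions had reads in all 4 libraries. The regions were 19 to 86 bases wide (median 36, against 27 over the table), and none was of 10 bases or fewer. Across the table, libraries 1 and 2 resembled one another, as did libraries 3 and 4. Because the labels name no batch, values are given for each library, and what sets the libraries apart was not tested. The SD over libraries therefore holds this difference. The design text calls the quadruplicates biological, but whether they were separate cultures is not stated, so the spread may be partly technical.

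MicroRNAs known to act on these mRNAs show why the position of a transcript end matters. Such a microRNA pairs through its seed, bases 2 to 8, with sites in the 3' UTR, and a transcript that ends before a site does not carry it. The let-7 family is known to act on TGFBR1. From the cluster that holds miR-17, miR-18a and miR-20a, miR-17 and miR-20a are known to act on TGFBR2 and miR-18a on SMAD2 and SMAD4. The mature sequences are from RefSeq on GRCh38.p14, written 5' to 3' with the seed in capitals. They are background: no microRNA was measured in these libraries, and no site was looked for.
hsa-let-7a-5p: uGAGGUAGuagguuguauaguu
hsa-miR-17-5p: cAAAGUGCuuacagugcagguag
hsa-miR-20a-5p: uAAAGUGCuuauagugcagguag
hsa-miR-18a-5p: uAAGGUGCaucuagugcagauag
The seed of hsa-miR-17-5p is the same as that of hsa-miR-20a-5p, AAAGUGC. The other 2 seeds, GAGGUAG and AAGGUGC, each differ from it.

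All 5 genes had transcript ends at moderate levels, with SMAD2 and SMAD4 above both receptors in every library. Levels are in CPM, the counts scaled to the library's total in the table. A read counts a transcript end, so gene length does not enter when levels of different genes are set side by side. Reads primed inside a transcript, duplicate reads and ends absent from the table could still differ by gene. Their part in the levels was not tested. SMAD2 had 63.1, 61.5, 83.1 and 75.3 CPM in libraries 1 to 4 (mean 70.8 ± 10.3, SD, n = 4). SMAD4 had 64.9, 77.2, 64.8 and 58.5 CPM (66.3 ± 7.83). SMAD3 had 47.2, 43.9, 60.4 and 67.5 CPM (54.8 ± 11.1). SMAD2 and SMAD3, the 2 SMADs that the receptor phosphorylates, were both higher in libraries 3 and 4 than in libraries 1 and 2. So was TGFBR1, and SMAD4 was highest in library 2. Among single regions of the table, 24.8% had both of libraries 3 and 4 above both of libraries 1 and 2 in CPM. That share was not taken over whole genes.

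The receptors were lower and close to one another. TGFBR1 had 43.4, 38.4, 50.1 and 44.7 CPM in libraries 1 to 4 (44.1 ± 4.81, SD, n = 4). TGFBR2 had 38.0, 44.4, 41.3 and 48.2 CPM (43.0 ± 4.35). TGFBR1 was above TGFBR2 in libraries 1 and 3 and below it in libraries 2 and 4. For comparison, the table was divided into 17961 units, which are the 5 windows and, elsewhere, regions of a strand joined within 5 kb. Of these units, 73.8% had a lower mean level than TGFBR2, 74.2% than TGFBR1, 78.0% than SMAD3, 81.4% than SMAD4 and 82.4% than SMAD2.

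**Figure D1:**
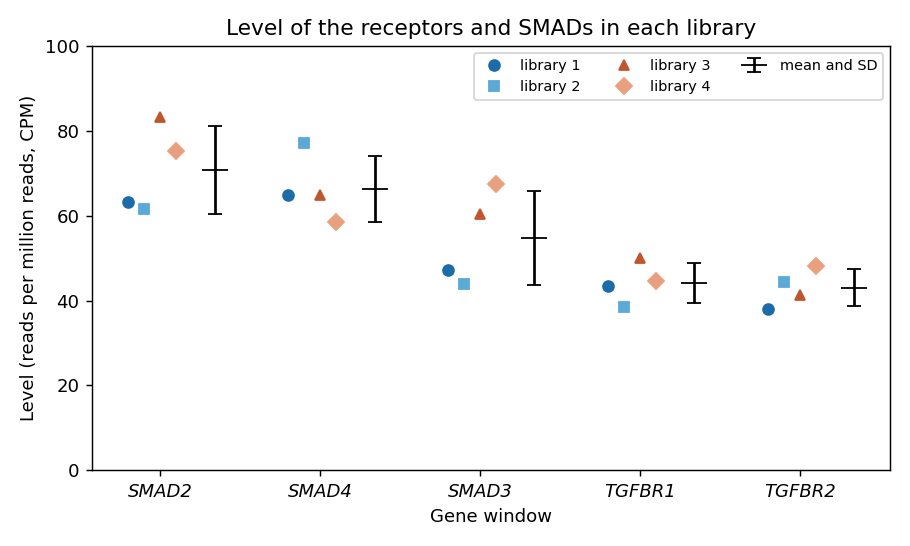
Level of each gene (CPM, linear axis from 0) in each of the 4 libraries, in order of the mean, with the mean and SD (n = 4) beside the points. SMAD2 and SMAD4 lie above both receptors in every library, and neighbouring genes in the order overlap.

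The order of the means was SMAD2, SMAD4, SMAD3, TGFBR1 and TGFBR2, and every pair of neighbours in it overlapped in range. Of the 10 pairs of genes, 4 did not overlap: SMAD2 and SMAD4, each against TGFBR1 and TGFBR2. SMAD2 was 1.46 to 1.69 times TGFBR1 and 1.39 to 2.01 times TGFBR2 across libraries. SMAD4 was 1.29 to 2.01 times TGFBR1 and 1.21 to 1.74 times TGFBR2. Within a library such a ratio does not depend on the scaling. With 4 libraries, an exact paired permutation test (two-sided sign flips) cannot give less than p = 0.13. That value was reached by the 6 pairs that kept their direction in all 4 libraries, and it became 0.21 after Benjamini-Hochberg adjustment over the 10 pairs, so no order of 2 genes passed a threshold of 0.05.

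Ratios between partners of the pathway varied by library. SMAD2 over SMAD3 was 1.34, 1.40, 1.38 and 1.12 in libraries 1 to 4, so SMAD2 was the higher of the 2 receptor-activated SMADs in every library. SMAD2 over SMAD4 was 0.973, 0.796, 1.28 and 1.29, and which of them was higher changed between libraries 1 and 2 and libraries 3 and 4 (exact permutation p = 0.75). TGFBR1 over TGFBR2 was 1.14, 0.865, 1.21 and 0.927 (exact permutation p = 0.88). Summed, the receptors gave 81.4, 82.7, 91.4 and 92.9 CPM, and the 3 SMADs gave 175.2, 182.5, 208.3 and 201.3 CPM.

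Whether single libraries differed in level was tested for each of the 6 pairs of libraries. Fisher's exact test (two-sided) was run after every library had been thinned to the depth of the smallest, with Benjamini-Hochberg adjustment over the 11100 units with at least 100 reads. Such a test compares libraries and not conditions. In 30 tests of the 5 genes, 3 passed. SMAD2 differed between libraries 1 and 3 (adjusted p = 0.030). SMAD3 differed between libraries 1 and 4 (adjusted p = 0.0085) and between libraries 2 and 4 (adjusted p = 0.018). Over all units, 24.8% were called between libraries 1 and 3, 23.6% between 1 and 4, 34.3% between 2 and 3, 32.6% between 2 and 4, 2.87% between 1 and 2 and 0.55% between 3 and 4. The 5 genes had 1, 1, 0, 1, 0 and 0 calls in the same order, which is no more than the table as a whole. TGFBR1, TGFBR2 and SMAD4 had no call. The highest library exceeded the lowest by 1.27 times for TGFBR2, 1.31 for TGFBR1, 1.32 for SMAD4, 1.35 for SMAD2 and 1.54 for SMAD3. The median was 1.40 over units with at least 100 reads. Those units were not matched for depth, and the 5 genes had 722 to 1237 reads in sum. On counts as deposited, SMAD2 had 2 calls, SMAD3 had 4 and SMAD4 had 1. With the regions of 10 bases or fewer left out of the table, SMAD3 had 0. None of its own regions was that narrow. The thinning was also drawn anew in that setting, so the effects of these changes cannot be told apart. With only another random thinning, SMAD3 had 2 calls.

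TGFBR2 transcripts ended in a single region. It lay on chromosome 3 from 30735569 to 30735641, 1359 bases before the end of the window, and held 198, 96, 236 and 192 reads in libraries 1 to 4. All of the gene's 722 reads were in these 73 bases. No other region of either strand lay in the window or within 10 kb of it. A region had to be in the table to be scored, so a weak second end below the table's own minimum would not be seen.

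TGFBR1 transcripts ended almost wholly in the more 3' of its 2 regions. That region lay on chromosome 9 from 101915904 to 101915989 and held 211, 77, 282 and 173 reads in libraries 1 to 4. Its share of the gene's reads was 93.4%, 92.8%, 98.6% and 97.2% (95.5% ± 2.86, SD, n = 4). The other region, from 101915727 to 101915757, ended 232 bases before it and had 15, 6, 4 and 5 reads. The share of this minor end was 6.64%, 7.23%, 1.40% and 2.81% in libraries 1 to 4, lower in the last 2. Exact Clopper-Pearson 95% intervals, which cover counting error only, were 3.76% to 10.7% in library 1 and 0.382% to 3.54% in library 3, and they did not overlap. In library 2 the interval was 2.70% to 15.1% and in library 4 it was 0.918% to 6.43%. Each of these overlapped the intervals of all other libraries. Over the libraries the minor end held 3.88% of the reads, under the 5% minimum.

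**Figure D2:**
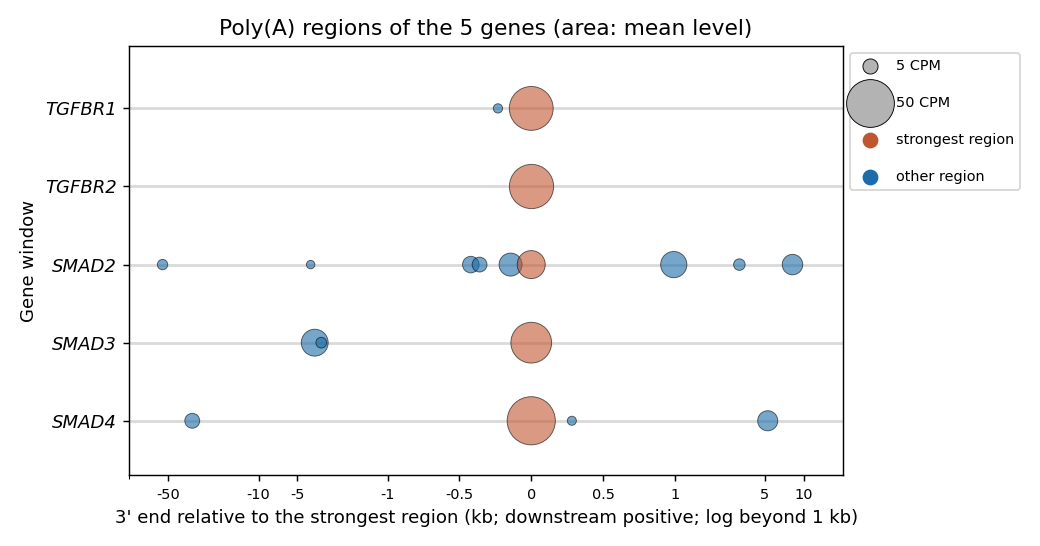
The 19 poly(A) regions of the 5 genes, placed by the distance of their 3' end from that of the gene's strongest region (kb, linear within 1 kb and logarithmic beyond; downstream to the right). The area of a circle is the mean level (CPM, n = 4 libraries). TGFBR2 has a single region, SMAD2 has 9 that spread to both sides, and SMAD2 and SMAD4 each have a region over 30 kb upstream.

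SMAD3 transcripts had 2 main ends, 3673 bases apart. The more 3' one, on chromosome 15 from 67487486 to 67487542, was the stronger and held 156, 63, 232 and 183 reads in libraries 1 to 4. It took 63.4%, 66.3%, 67.2% and 68.0% of the gene's reads (66.3% ± 2.02, SD, n = 4). The upstream one, from 67483842 to 67483869, held 69, 24, 108 and 80 reads and took 28.0%, 25.3%, 31.3% and 29.7% (28.6% ± 2.59). The more 3' end thus led in every library, and no test of the usage of either end passed. Both were higher in CPM in libraries 3 and 4 than in libraries 1 and 2, as the gene's level was.

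The weakest SMAD3 region followed another order. It lay between them, from 67484249 to 67484273, and held 21, 8, 5 and 6 reads. Its share was 8.54%, 8.42%, 1.45% and 2.23% in libraries 1 to 4, and so higher in the first 2 of them. The intervals of libraries 1 and 3 were 5.36% to 12.8% and 0.472% to 3.35%. Those of libraries 2 and 4 were 3.71% to 15.9% and 0.823% to 4.79%, and these overlapped. The region held 4.19% of the gene's reads and did not pass the minimum, so its usage was not tested.

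Downstream of SMAD3 the opposite strand carried ends of its own. The nearest, from 67493343 on the minus strand, lay 5801 bases past the last SMAD3 end, and the strongest, from 67493991, had 68.5, 57.8, 77.5 and 83.6 CPM in libraries 1 to 4. AAGAB is the protein-coding gene after SMAD3 in RefSeq's gene order on GRCh38.p14. Which gene these minus-strand ends belong to cannot be read from the table, and the 2 strands were counted apart. No region of the opposite strand lay inside any of the 5 windows.

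SMAD4 transcripts ended mainly in a region on chromosome 18 from 48606128 to 48606174. It held 265, 134, 269 and 173 reads in libraries 1 to 4, and its sum of 841 was the highest of the 19 regions. Its share of the gene's reads was 78.4%, 80.2%, 72.7% and 74.2% (76.4% ± 3.51, SD, n = 4). Unlike the strongest regions of TGFBR1 and SMAD3, it was not the most 3' one of its gene.

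The most 3' SMAD4 region lay 5244 bases further downstream, from 48611399 to 48611418, and was the SMAD4 region whose share had the largest SD between libraries. It held 38, 11, 71 and 42 reads. Its share was 11.2%, 6.59%, 19.2% and 18.0% in libraries 1 to 4 (13.8% ± 5.93, SD, n = 4), so both of libraries 3 and 4 were above both of libraries 1 and 2. The exact interval was 3.33% to 11.5% in library 2 and 15.3% to 23.6% in library 3. In libraries 1 and 4 it was 8.08% to 15.1% and 13.3% to 23.6%, and these overlapped. Transcripts that end there end 5244 bases past the main end. Whether they carry all that lies between the 2 ends was not tested, because exons are not assigned here.

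The remaining SMAD4 regions were minor. A region from 48573546 to 48573573, 32601 bases upstream of the main end and 18573 bases into the window, held 24, 19, 19 and 11 reads. It took 7.10%, 11.4%, 5.14% and 4.72% of the gene's reads (7.08% ± 3.04, SD, n = 4) and passed the minimum. A transcript that ended there would lack the rest of the window. Oligo(dT) can also prime on runs of A inside a transcript. With no genome sequence of hg19, this could not be looked at and was not tested. The last region, from 48606433 to 48606457, ended 283 bases after the main one and held 11, 3, 11 and 7 reads (2.76% ± 0.653).

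**Figure D3:**
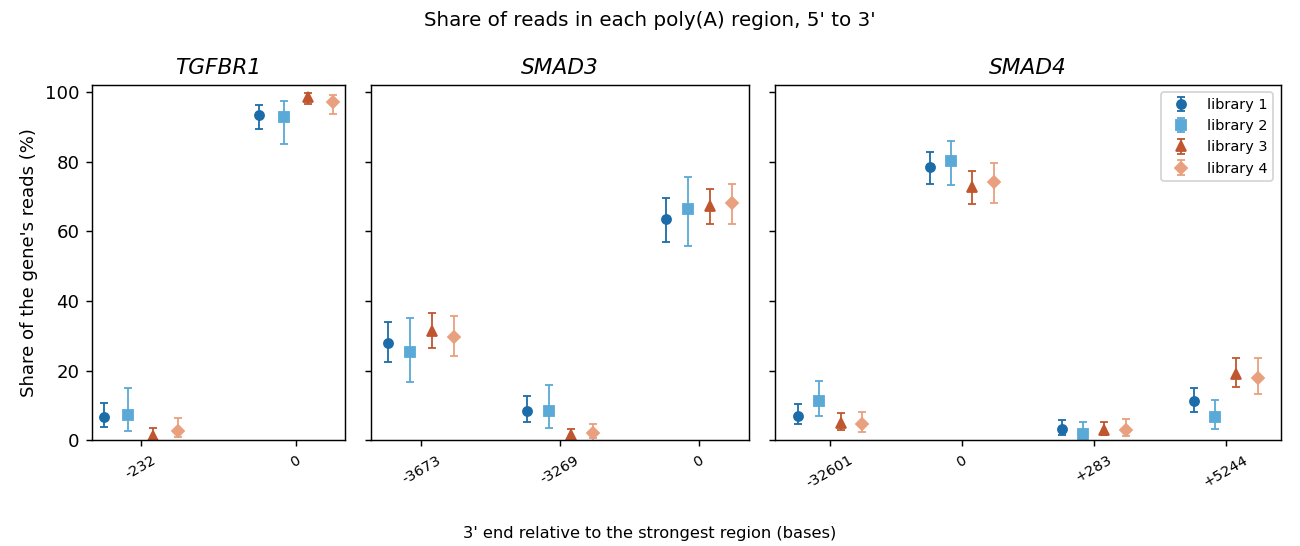
Share of each gene's reads (%, linear axis from 0) in each region of TGFBR1, SMAD3 and SMAD4, ordered 5' to 3' and labelled by the distance of the 3' end from the strongest region in bases. Points are single libraries with exact 95% intervals. The strongest region leads in every library, the most 3' SMAD4 region lies between 6.59% and 19.2%, and the minor TGFBR1 region and the weakest SMAD3 region are higher in libraries 1 and 2.

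In SMAD2 no single end led. Its 9 regions gave 7.29, 7.16, 6.65 and 6.46 effective regions in libraries 1 to 4 (6.89 ± 0.395, SD, n = 4). This number is the exponential of the Shannon entropy of the shares and equals the number of regions when all are used alike. It was 2.17 ± 0.180 for SMAD3, 2.12 ± 0.119 for SMAD4 and 1.20 ± 0.107 for TGFBR1, which have fewer regions and so a lower ceiling. The 8 regions of SMAD2 that lie within 5 kb of a neighbour made 1 locus, of which 6 regions passed. Of 11100 loci joined in that way with at least 100 reads, 98 (0.883%) had as many passing regions or more. The SMAD2 locus had 1201 reads, and the loci were not matched for depth. This share was not recomputed with another joining distance. The number of passing SMAD2 regions depends on the minimum: it was 9 with no minimum share and 4 with a minimum of 10%. With ends within 100 bases merged it was 5.

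The 2 most used SMAD2 regions changed places in read counts between libraries. The region on chromosome 18 from 45367595 to 45367638 had the most reads in sum, 294, with 82, 37, 105 and 70 in libraries 1 to 4. It took 24.9%, 27.8%, 22.1% and 23.3% of the gene's reads (24.5% ± 2.47, SD, n = 4). The next, from 45366602 to 45366682, ended 993 bases further downstream and held 51, 14, 137 and 80 reads, 282 in sum. Its share was 15.5%, 10.5%, 28.8% and 26.7% (20.4% ± 8.79). It was thus behind the first region in libraries 1 and 2 and ahead of it in libraries 3 and 4, and its reads were 0.622, 0.378, 1.30 and 1.14 times those of the first. By summed reads the second region came first without library 1 (231 reads, against 212 for the other region) or without library 2 (268 against 257). By the mean share, which weights libraries alike, it stayed behind without library 1 (22.0% against 24.4%) and was barely ahead without library 2 (23.7% against 23.5%).

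Close upstream of these lay 3 further SMAD2 ends, 144, 360 and 421 bases before the first. The nearest, from 45367739 to 45367772, took 20.7%, 18.8%, 15.4% and 12.0% in libraries 1 to 4 (16.7% ± 3.83, SD, n = 4). The other 2, from 45367955 and from 45368016, took 6.88% ± 0.828 and 8.65% ± 2.19. With the 2 leading regions, these 5 ends spanned 1414 bases and held 76.0%, 75.9%, 78.1% and 78.7% of the gene's reads (77.2% ± 1.42). The cluster was taken as the ends within 1000 bases of the strongest. At 993 bases, the region at 45366602 was only just inside it. The share of the cluster so bounded moved little between libraries, and no other boundary was tried. The share of the region at 45366602 ran from 10.5% in library 2 to 28.8% in library 3.

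**Figure D4:**
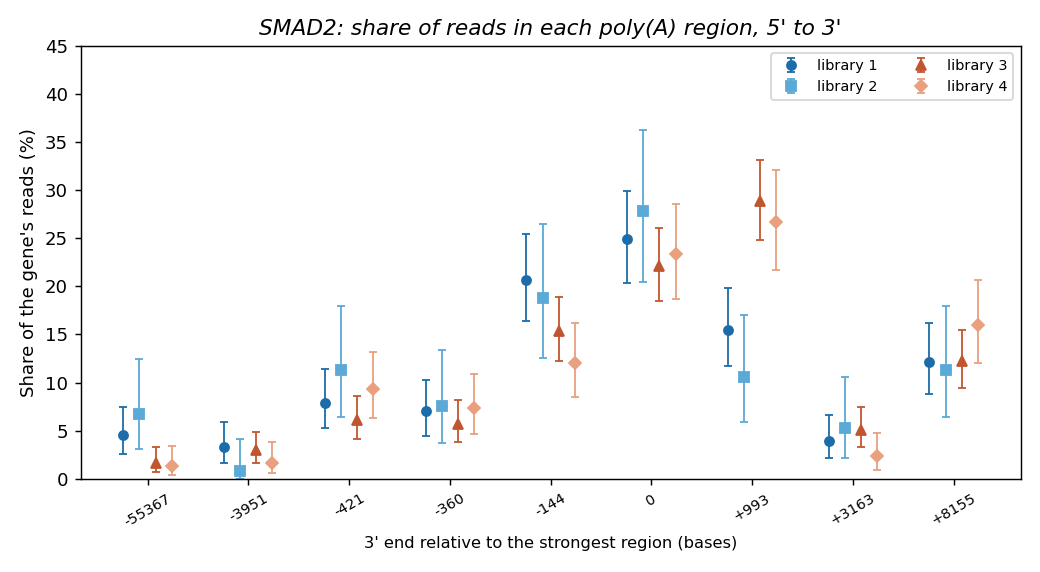
Share of SMAD2 reads (%, linear axis from 0) in each of its 9 regions, ordered 5' to 3' and labelled by the distance of the 3' end from the strongest region in bases. Points are single libraries with exact 95% intervals. The region 993 bases downstream takes 10.5% and 15.5% in 2 libraries and 26.7% and 28.8% in the other 2.

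Further from the cluster, SMAD2 had 4 other ends. The most 3' one, from 45359440 to 45359489 and 8155 bases past the strongest, held 40, 15, 58 and 48 reads. It took 12.2%, 11.3%, 12.2% and 16.0% of the gene's reads (12.9% ± 2.10, SD, n = 4), and the window ran on for 25440 bases beyond it without another region. Regions from 45364432 and from 45371546 held 51 and 31 reads in sum. The most 5' region, from 45422962 to 45423036, lay 55367 bases upstream of the strongest and held 15, 9, 8 and 4 reads. Its share of the gene's reads was 4.56%, 6.77%, 1.68% and 1.33%, again lower in the last 2 libraries. As for the upstream region of SMAD4, priming inside the transcript was not tested.

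Usage was tested between libraries for the strongest region of each unit first, with the other regions of the unit as the remainder, over 5989 units with 2 or more regions and at least 100 reads. TGFBR2, with its single region, has no such test. By Fisher's exact test on thinned counts with Benjamini-Hochberg adjustment, 0 of 24 tests of the other 4 genes passed, and 1 had an unadjusted p under 0.05 (TGFBR1, between libraries 1 and 3, p = 0.030). On counts as deposited, TGFBR1 passed between libraries 1 and 3 (adjusted p = 0.016) and between libraries 2 and 3 (adjusted p = 0.042). Over all units 12.9% were called between libraries 1 and 3, 11.3% between 1 and 4, 18.9% between 2 and 3, 16.2% between 2 and 4, 0.401% between 1 and 2 and 0.0334% between 3 and 4.

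The same test was then run on every passing region, a comparison chosen after seeing the data. In 72 tests of 12 regions of the 4 genes, 5 passed. The SMAD2 region at 45366602 differed between libraries 1 and 3 (adjusted p = 0.0019), 1 and 4 (0.0032), 2 and 3 (0.0015) and 2 and 4 (0.0024). The most 3' SMAD4 region differed between libraries 2 and 3 (adjusted p = 0.032). Neither differed between libraries 1 and 2 or between libraries 3 and 4. On counts as deposited, the same 4 pairs passed for the SMAD2 region (adjusted p = 9.48e-05 to 0.0065) and 3 pairs passed for the SMAD4 region. Further calls there were the SMAD2 region at 45367739 between libraries 1 and 4 (adjusted p = 0.024) and the main region of TGFBR1 in 2 pairs. With another random thinning the SMAD2 region passed in 2 pairs and the SMAD4 region in 2.

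Such differences were common across the table. Of 14384 passing regions, 10.5% were called between libraries 1 and 3, 9.17% between 1 and 4, 15.8% between 2 and 3, 13.8% between 2 and 4, 0.292% between 1 and 2 and 0.0278% between 3 and 4. Among the 12 regions of these genes the shares were 8.33%, 8.33%, 16.7%, 8.33%, 0% and 0% in the same order. The members were thus called about as often as other regions in these pairs of libraries.

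The direction of the difference was not the same for all ends of a gene. In CPM, 5 of the 19 regions were higher in both of libraries 1 and 2 than in both of libraries 3 and 4, as were 40.8% of all regions. They were the main and the far upstream region of SMAD4, the far upstream region of SMAD2, the weakest region of SMAD3 and the minor region of TGFBR1. The reverse held for 8 regions, and for 24.8% of all regions. These were the main region of TGFBR1, both main regions of SMAD3, the most 3' region of SMAD4, and 4 regions of SMAD2, the most 3' one and those at 45366602 and 45367595 among them. The remaining 6, with the only region of TGFBR2, followed neither order. These orders take no account of counting error, and some gaps were small. The SMAD2 region at 45367595 had 15.7, 17.1, 18.4 and 17.6 CPM in libraries 1 to 4. The far upstream region of SMAD4 had 4.61, 8.78, 3.33 and 2.76 CPM in libraries 1 to 4, while the gene's most 3' region had 7.29, 5.08, 12.4 and 10.5 CPM.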

How the data were processed

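The data are poly(A) site sequencing of 4 libraries of 1 group. The deposited values are raw read counts, with 1 row for each poly(A) region and 1 column for each library, per the file headers. Bowtie2 2.2.5 and hg19 are named in the submitters' processing notes. The rule that formed regions was not given in the sources used here. Nor is it stated whether duplicates were removed with the primer's degenerate bases, so intervals cover counting error only. Positions are printed as deposited.

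Members were found by position, and the 5 genes are the named genes. The members, lists and thresholds were chosen with earlier results of these data known. Counts were scaled to CPM of the table total. Fisher's exact test (two-sided, SciPy 1.17.1) was run across all units or regions on counts thinned to the smallest library, with Benjamini-Hochberg adjustment. Only the test of the strongest region's usage was tried on simulated counts, which held no spread beyond sampling. The tests of level and of every passing region were not tried in this way. Alternatives used TMM factors (edgeR 4.0.16), median-of-ratios size factors (DESeq2 1.42.0), other minima, joining distances and thinning, and each library left out. Other genes of the pathway need an hg19 annotation and were not analysed here.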

Additional observations from a re-analysis of the deposited data

Results flagged for a closer look

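Of 36 values of these genes (levels, shares of regions and ratios of levels) examined for 1 library lying apart from the rest, 0 stood apart, where chance gives about 1 in 20.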

How the results depend on the processing

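Of 302 values recomputed under alternatives, 278 stayed within the tolerance used: the same direction for ratios of levels, 1 SD for levels and shares, and 1.5 times for counts. Many of these values could not change. Ratios of levels do not depend on the scaling, and the only TGFBR2 region always held all of that gene's reads. No region of these genes was narrow, and extending the windows added none, so ratios, shares and numbers of passing regions were then fixed. The gene levels stayed within 1 SD under both other scalings. Both keep the geometric mean of the library depths, so a mean over all 4 libraries could hardly move. Differences between libraries were not compared under these scalings. The gene levels also stayed within 1 SD without narrow regions, with windows extended by 5 kb downstream and without each library. Those checks could not show otherwise. Leaving out narrow regions changed only the total used for scaling, and the extension added no reads. Omitting 1 of 4 libraries cannot move a mean by 1 SD. The 2 closest pairs turned when a library was left out: log2 of TGFBR1 over TGFBR2 ran from -0.043 to 0.12 and log2 of SMAD2 over SMAD4 from -0.0023 to 0.23. Over the same omissions whichever SMAD2 region had the most reads took 22.0% to 25.4% (the region at 45366602 without library 1 or 2, that at 45367595 otherwise), TGFBR1 had 1 to 2 passing regions and SMAD3 had 2 to 3 (the higher numbers without library 3), and the most 3' passing SMAD3 region took 65.9% to 70.1% of the reads in passing regions. That last share was 69.9% in all libraries and 66.3% with no minimum share, which admits the weakest SMAD3 region; TGFBR1 then had 2 passing regions, SMAD2 had 9, SMAD3 had 3 and SMAD4 had 4. With a 10% minimum SMAD2 had 4 passing regions and SMAD4 had 2, and with ends within 100 bases merged SMAD2 had 5. With the 10% minimum the most 3' SMAD2 region took 17.3%, against 14.3%, because fewer regions share the reads. Calls between pairs of libraries moved most. On counts as deposited, 5 calls of single SMAD2 regions were made, levels gave 2 calls for SMAD2, 4 for SMAD3 and 1 for SMAD4, the strongest region gave 2 for TGFBR1, and single regions gave 2 for TGFBR1 and 3 for SMAD4. With another random thinning, levels gave 2 for SMAD2, and single regions 2 for SMAD2 and 2 for SMAD4. Without regions of 10 bases or fewer, levels gave 2 for SMAD2, 0 for SMAD3 and 1 for SMAD4, and single regions 2 for SMAD2 and 2 for SMAD4. The thinning was drawn anew in that setting too, although no region of these genes was removed. Why these counts moved was not tested. Weak regions had as few as 1 read in a library, and differences within their intervals are not detectable at this depth. Conditions could not be compared, paired or not, because all libraries belong to 1 group. Pairing by library was used only for the ratios between genes.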
